A study of Homo sapiens with 6 samples.

Results

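Chromatin accessibility was examined at 9 genes of the p53 pathway, MDM2, MDM4, CDKN1A, CDKN2A, TP63, TP73, GADD45A, SESN1 and PPM1D, in naïve and indisulam-resistant SK-N-AS cells. A peak was assigned to one of these genes when it overlapped the gene body or the 10 kb on either side of it, and the 9 genes are 9 of 20007 protein-coding genes in GENCODE 44. SK-N-AS is an established neuroblastoma line, and indisulam is a compound that leads to degradation of the splicing factor RBM39. Xenografts of the study grew in immunodeficient mice (CB17 SCID or NSG). The naïve cells were expanded from vehicle-treated SK-N-AS xenografts, and the cells named R1 and R2 from resistant xenografts that had relapsed for the second time and were taken during a further cycle of indisulam. The sources used here give no treatment of the cultured cells, no other drug and no introduced allele for any of the 3 groups. R1 and R2 are single resistant lines, so a difference between them and the naïve cells is a difference between these lines. ATAC-seq, in which the Tn5 transposase tags open DNA, was run on 100000 cells per library with 2 libraries per group, and nothing says whether the 2 libraries came from separate cultures, so p-values measure only the spread between libraries.

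The p53 protein is a transcription factor that is activated by DNA damage and other stress and binds a response element made of a pair of adjacent decamers. MDM2 is a ubiquitin ligase that marks p53 for degradation, MDM4 is its partner that blocks p53 as an activator, and PPM1D is a phosphatase that turns the damage signal off. CDKN1A (p21), GADD45A and SESN1 are targets of p53, acting on the cell cycle, on the damage response and on redox and nutrient signalling. CDKN2A encodes 2 proteins from different starts, p16INK4A, an inhibitor of CDK4 and CDK6, and ARF, an inhibitor of MDM2. TP63 and TP73 encode relatives of p53, each with a start for a form that has the activation domain (TA) and an internal start for a form without it (ΔN), and TP63 is known for its role in stratified epithelium.

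Matches to the p53 response element are shown first, since the results below ask whether open chromatin covered them. The element was searched on both strands of hg38 with up to 2 mismatches outside the fixed C and G of its cores, and 15 matches lay in the windows of the 9 genes. TP73 had 6 of them, TP63 had 3, CDKN1A had 2, MDM2, MDM4, CDKN2A and GADD45A had 1 each, and SESN1 and PPM1D had 0. The following matches, all on the plus strand, differed in which libraries covered them. Capitals mark bases that match the element and lower case marks mismatches.
GADD45A, chr1:67686775-67686794: GAACATGTCTAAGCATGCTg
CDKN1A, chr6:36676449-36676468: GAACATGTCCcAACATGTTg
CDKN1A, chr6:36667258-36667277: AGACAAGCCCGGGCAAGgCC
MDM2, chr12:68808923-68808942: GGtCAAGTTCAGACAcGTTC
MDM4, chr1:204525046-204525065: AGACATGTTCcAACATGTTg
TP73, chr1:3665190-3665209: AGGCATGCTCcAACTTGCTT
The GADD45A match, in intron 3 and 1584 bp after the canonical start, lay under a peak in all 6 libraries. The MDM2 match, in intron 1 and 756 bp after the start, lay under a peak in both R1 libraries and in R2 replicate 2. The CDKN1A match at 2256 bp before the start lay under a peak in both R1 libraries and in no other, and the match at 11446 bp before the start was covered in naïve replicate 1 and both R1 libraries. The MDM4 match in intron 1 and the printed TP73 match were covered in no library, as were the 3 matches of TP63 and the match of CDKN2A. The other 5 matches of TP73 lay under peaks of R1 libraries only, 4 of them in both and 1 in R1 replicate 1. These counts are a description, since the lists differed in length. A match with up to 2 mismatches lay within 200 bp centred on the summit in 0.151% of the 36449 regions that had a peak in all lists. A match is not a site of binding, and elements with spacers between the decamers were not searched.

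Stretches of the promoters are shown for genes that stood at opposite ends of the comparison below: CDKN1A and PPM1D, which were open in all libraries, TP73, which was open in R1, and TP63, which was open in none. Each is the last 150 bases before the RefSeq start, on the plus strand of GRCh38.p14. Capitals mark the GC box GGGCGG, the CCAAT box or the CRE TGACGTCA, each on either strand.
CDKN1A, chr6:36678564-36678713: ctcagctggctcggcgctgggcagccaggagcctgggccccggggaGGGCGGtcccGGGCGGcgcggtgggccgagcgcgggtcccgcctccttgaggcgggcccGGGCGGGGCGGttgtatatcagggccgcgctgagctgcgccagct
PPM1D, chr17:60600043-60600192: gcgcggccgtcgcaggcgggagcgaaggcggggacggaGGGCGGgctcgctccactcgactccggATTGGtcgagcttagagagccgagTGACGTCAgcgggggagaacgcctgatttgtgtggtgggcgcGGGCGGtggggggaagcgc
TP73, chr1:3652366-3652515: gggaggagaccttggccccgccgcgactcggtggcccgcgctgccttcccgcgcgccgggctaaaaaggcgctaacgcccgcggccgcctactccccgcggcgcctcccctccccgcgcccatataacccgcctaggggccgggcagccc
TP63, chr3:189631239-189631388: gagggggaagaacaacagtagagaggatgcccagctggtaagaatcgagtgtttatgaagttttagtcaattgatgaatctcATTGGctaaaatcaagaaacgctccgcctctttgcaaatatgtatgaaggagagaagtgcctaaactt
Over the 250 bases before the start, the GC content was 76.4% in CDKN1A, 70.4% in PPM1D and 77.2% in TP73, against 44.0% in TP63, and the median over the promoters of 15345 protein-coding genes was 62.4%. CDKN1A held 27 CpG dinucleotides, TP73 held 38 and TP63 held 6, against a median of 17. The GC box occurred 4 times in CDKN1A, counting overlapping matches, 7 times in SESN1 and 2 times in PPM1D, and at least once in 56.7% of all promoters. The CCAAT box occurred 2 times in MDM2, where both overlap as an inverted pair, 2 times in TP63 and 1 time in PPM1D, and in 34.8% of all promoters. The CRE occurred 1 time in PPM1D and in 2.36% of all promoters. TP73 and TP63 thus differed in base composition, and TP73 held neither a GC box nor a CCAAT box. MDM4, also open in all libraries, had a GC content of 52.8% and 12 CpG dinucleotides, both below the medians. It held no GC box, CCAAT box or CRE. A link between base composition and open promoters was not tested. RefSeq promoters matched 8 of the 9 genes, and for CDKN2A the entry belongs to a start 20467 bp upstream of the p16INK4A start.

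The lists differed in length and depth, and this touches each count of peaks given here. R1 had the longest lists, 340558 and 292030 peaks, followed by naïve with 154926 and 115694, and R2 had 67558 and 73484. The background rate, the tags expected under a peak by chance as recovered from the deposited folds, was 2.29 and 1.35 in naïve, 7.94 and 5.43 in R1, and 0.850 and 0.899 in R2. Called peaks began at a pileup that corresponded to 3.94 and 5.18 times the background in naïve, 2.27 and 2.58 times in R1, and 7.06 and 6.68 times in R2, so a weak site could be called in R1 and missed in R2. HAND2, GATA3, ISL1 and TBX2, markers of adrenergic neuroblastoma, had a promoter peak in all 6 lists, as had the mesenchymal markers FOSL1 and PRRX1. Of the markers of other cells, PTPRC and ALB had none in any list and PECAM1 had one in 4 of 6.

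Promoters of 6 of the 9 genes were open in every library. A peak within 1000 bp of the canonical start was present in all 6 lists for MDM2, MDM4, CDKN1A, GADD45A, SESN1 and PPM1D, and 54.7% of all protein-coding genes had such a peak in all 6. CDKN2A and TP73 had one in both R1 lists and in neither naïve list, which held for 8.96% of all genes. TP63 had one in no list, which held for 14.4% of all genes. Within the window of gene body and 10 kb on either side, 8 of 9 genes had a peak in all 6 lists, all but TP63, and 71.0% of all genes did.

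**Figure D1:**
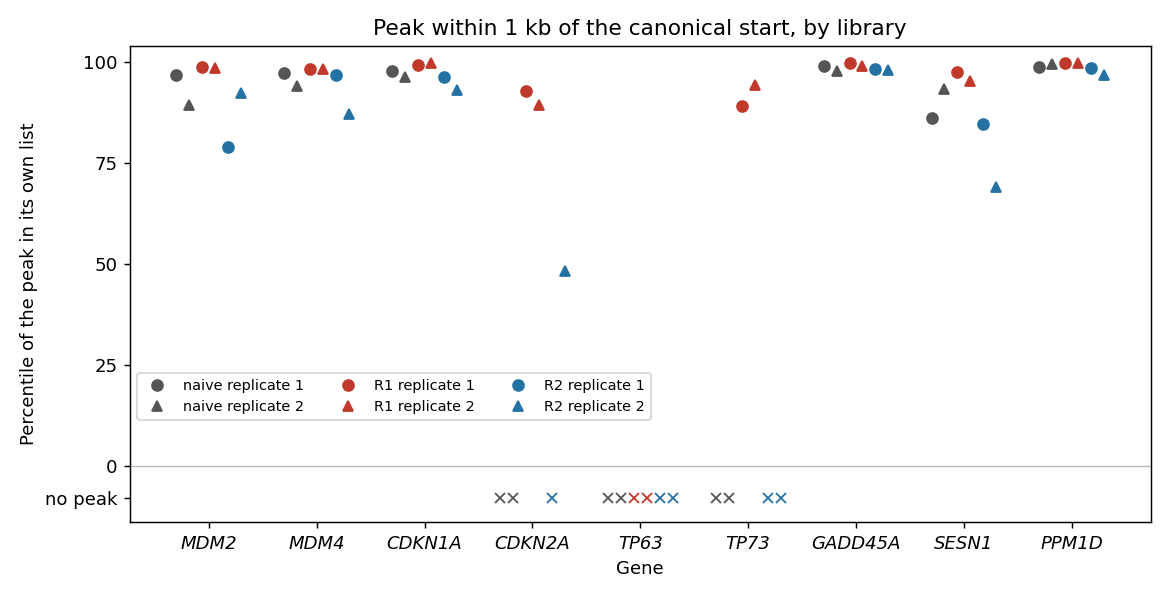
Percentile of the peak within 1000 bp of the canonical start, ranked by p in its own list (0 to 100, vertical axis), for the 9 genes and 6 libraries. Circles are replicate 1, triangles replicate 2, and crosses below the line are libraries with no peak. The 6 genes with peaks in all libraries sit between 69.1 and 99.8, TP63 has crosses only, and TP73 has points only for R1.

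Among the negative regulators of p53, PPM1D had the strongest promoter peak. Its percentile in the list, where 100 is the peak with the smallest p, was 98.9 and 99.5 in naïve, 99.7 and 99.8 in R1, and 98.5 and 96.8 in R2. Its tags at the summit were 25.8 and 40.7 times the background in naïve, 35.9 and 38.1 times in R1, and 43.5 and 32.3 times in R2. The groups overlapped on that depth-scaled level, and the peak was close to the top of each list. MDM4 had percentiles of 97.2 and 94.0 in naïve, 98.2 and 98.2 in R1, and 96.7 and 87.2 in R2, with summits of 19.2, 18.5, 21.0, 21.7, 34.1 and 18.9 times the background in the same order. The R2 libraries of MDM4 lay further apart than its naïve or R1 libraries on both scales. MDM2 had percentiles of 96.9 and 89.5 in naïve, 98.9 and 98.6 in R1, and 78.9 and 92.3 in R2, so that its R1 libraries were alike and the naïve and R2 libraries overlapped.

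Among the p53 targets GADD45A, CDKN1A and SESN1, the promoter peak of GADD45A was the strongest in all libraries but R1 replicate 2, where CDKN1A was stronger. Its percentiles were 99.0 and 97.9 in naïve, 99.7 and 98.9 in R1, and 98.4 and 98.1 in R2. Its summit was 26.7 and 26.6 times the background in naïve, 35.4 and 25.9 times in R1, and 42.3 and 37.8 times in R2. On this scale the R2 libraries were above the other 4, and the R1 libraries lay on both sides of the naïve ones. CDKN1A had percentiles of 97.7 and 96.3 in naïve, 99.3 and 99.7 in R1, and 96.3 and 93.1 in R2. Its summit was 20.5 and 22.2 times the background in naïve, 28.7 and 35.9 times in R1, and 32.9 and 24.5 times in R2, so all resistant libraries were above both naïve libraries. That scale moves with the library too, since the median promoter shared by all lists was at 14.9 and 17.0 times the background in naïve, 20.8 and 20.1 in R1, and 20.0 and 20.0 in R2. SESN1 was the weakest of the 6 genes in 4 of the 6 libraries, with percentiles of 86.1 and 93.4 in naïve, 97.5 and 95.4 in R1, and 84.7 and 69.1 in R2.

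To compare groups on one scale, the best promoter peak was ranked by p within each library among the 10946 promoters that had a peak in all 6 lists (0 to 100). CDKN1A ranked at 75.2 and 70.5 in naïve, 78.9 and 93.1 in R1, and 84.4 and 67.2 in R2. GADD45A ranked at 89.4 and 82.7 in naïve, 90.6 and 74.0 in R1, and 94.5 and 92.2 in R2. PPM1D ranked at 88.1 and 97.3, 91.1 and 95.0, and 95.1 and 85.3. These 3 genes were in the upper part of the shared promoters in every library. MDM2 ranked at 67.1 and 36.6 in naïve, 67.9 and 66.8 in R1, and 32.5 and 63.9 in R2, and MDM4 at 70.3 and 55.6, 51.1 and 58.0, and 86.2 and 46.5. SESN1 ranked at 18.8 and 52.0 in naïve, 35.7 and 18.7 in R1, and 43.5 and 19.0 in R2. Replicates of MDM2, MDM4 and SESN1 thus differed by more than 20 points in at least 1 group, and shifts of that size in these genes could not be resolved.

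No promoter rank of the 6 genes passed the test in any comparison, which with 2 libraries a group does not show that none changed. For R1 against naïve, limma called 0 of 6 at an adjusted p under 0.05, with 0 of 6 at an unadjusted p under 0.05, while 5.96% of the 10946 promoters were called and 25.3% had an unadjusted p under 0.05. For R2 against naïve it called 0 of 6, against 0.585% of promoters. For both resistant groups against naïve it called 0 of 6, against 2.44%, and for R1 against R2 0 of 6, against 0.932%. Each of these 3 comparisons again had 0 of 6 at an unadjusted p under 0.05, where 17.9%, 22.5% and 18.6% of promoters were. The largest shift of R1 from naïve was that of MDM2, 15.5 points with an SE of 14.8 and an adjusted p of 0.559 by limma, and CDKN1A followed with 13.1 points, an SE of 7.63 and an adjusted p of 0.313. The smallest adjusted p was that of GADD45A between R1 and R2, 0.310 by limma, for a shift of -11.1 points with an SE of 5.40. The ranks of R1 and naïve did not overlap for 1 of 6 genes, CDKN1A, where 61.0% of promoters did not overlap. For R2 and naïve it was 1 of 6, GADD45A, against 42.0%, and for the 4 resistant libraries and naïve 0 of 6, against 26.4%. The median shift over the 6 genes was -1.69 points in R1 and 0.242 in R2, against -0.747 and 0.00571 over all promoters tested.

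**Figure D2:**
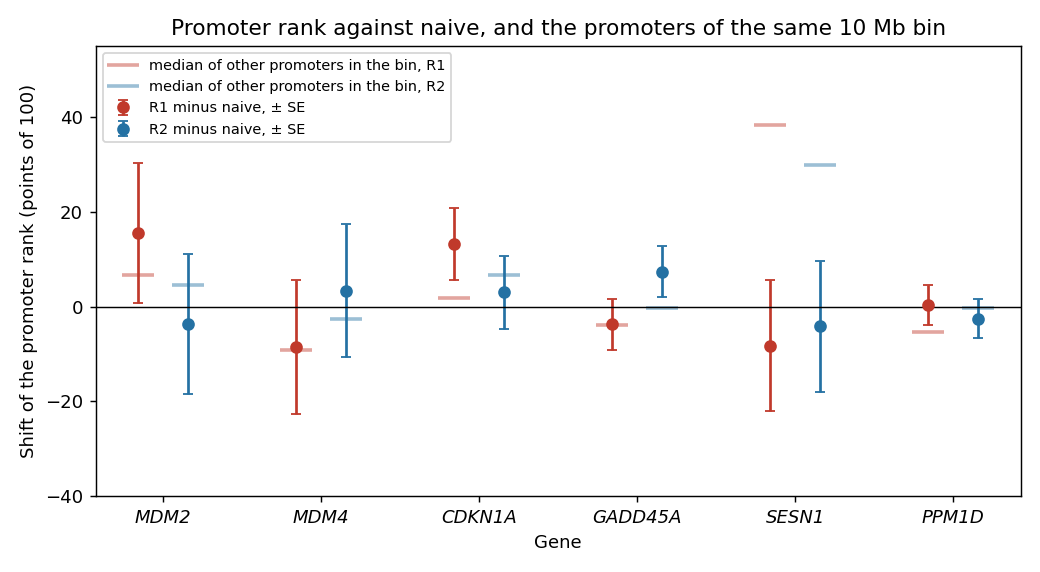
Shift of the promoter rank from naïve (points of 100) for the 6 genes with a promoter peak in all lists, in R1 (red) and R2 (blue). Points with bars are the shift ± SE of the limma fit, and the pale dashes are the median shift of the other promoters in the same 10 Mb of the chromosome. For SESN1 the pale dashes, at 38.3 and 29.8, lie above both points and their bars.

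SESN1 stood apart from the median of the other promoters around it, but not from its nearest neighbour. CEP57L1 starts at position 109095507 of chromosome 6, and the SESN1 promoter peak also lay within 1000 bp of that start in each library. That peak cannot be assigned to SESN1 alone, and CEP57L1 is among the 16 other promoters of the bin. The 16 other promoters in its 10 Mb bin on chromosome 6 had a median shift of 38.3 points in R1 and 29.8 in R2, and the regions there that were shared by all lists, 20 beside its own, had 34.5 and 37.9. SESN1 itself shifted by -8.20 points in R1 (SE 13.7) and -4.18 in R2 (SE 13.7). With the median of the bin subtracted in each library, SESN1 was at 1.28 and 29.6 in naïve, -18.7 and -46.2 in R1, and -2.36 and -34.5 in R2. All 4 resistant libraries were then below both naïve libraries, with shifts of -47.9 points for R1 (SE 15.5, unadjusted p of 0.0160, adjusted p of 0.204, limma) and -33.8 points for R2 (SE 15.5, adjusted p of 0.381), and neither passed the test. For the other 5 genes the median shift of the bin's promoters lay between -9.21 and 6.77 points in both resistant groups. A group-wide move of a chromosome segment was not tested for its cause.

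Alternative starts of these genes were examined next. At SESN1, the internal start at position 109009555 of chromosome 6 had a peak in both naïve libraries, with summits of 9.18 and 11.8 times the background, and in both R1 libraries, with 11.2 and 10.3 times, and in neither R2 library. The R1 summits scaled to the depth of R2 would be 8.76 to 9.53 tags in R2 replicate 1 and 9.26 to 10.1 tags in R2 replicate 2, above the 6 tags of the weakest called peaks there. Among canonical promoters, 4.06% had a peak in both naïve and both R1 lists and in neither R2 list. At MDM2, the internal starts between 68809002 and 68809226 of chromosome 12, which p53 is known to use, were covered in both R1 libraries by the same peak as the canonical start, 1271 and 1249 bp wide, and in R2 replicate 2 by a separate peak at 12.2 times the background. No peak covered them in the naïve libraries or in R2 replicate 1. At CDKN1A, the upstream start group from position 36676460 of chromosome 6, which the response element at 2256 bp before the canonical start adjoins, had a peak in R1 only, with 35 and 32 tags. Scaled to the naïve libraries these would be 10.1 to 13.5 and 5.95 to 7.96 tags, against lowest called pileups of 9 and 7. In R2 they would be 3.75 to 5.29 tags against 6, so the scaled R1 level lay below the weakest called peaks of R2. The 3 internal start groups of MDM4 had no peak in any library.

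**Figure D3:**
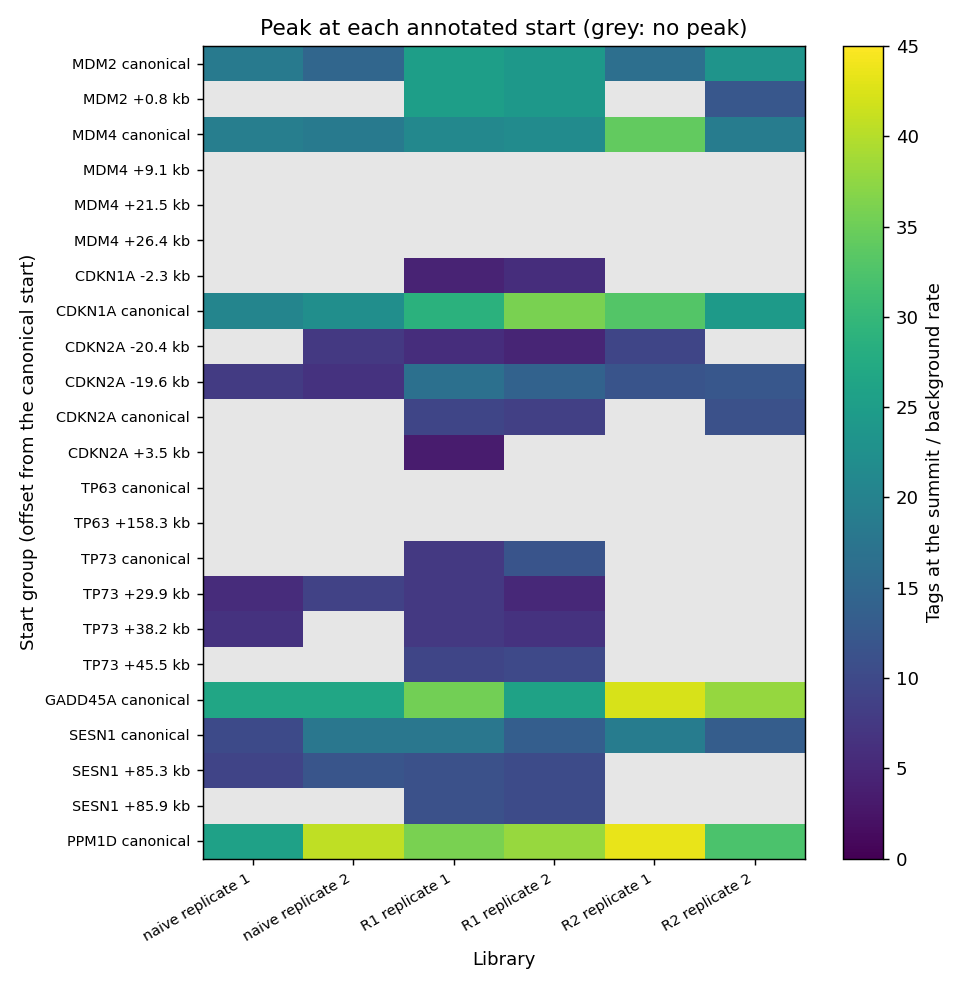
Tags at the summit over the background rate (colour) of the peak at each annotated group of starts, by library, with rows named by gene and the offset in kb from the canonical start. Grey cells have no peak, and a wide peak that covers neighbouring starts gives them the same value. The TP63 rows are grey throughout, the GADD45A and PPM1D rows lie between 25.8 and 43.5, and the SESN1 row at +85.3 kb is coloured in naïve and R1 and grey in R2.

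CDKN2A was the gene in which starts of different proteins parted. The ARF start, between 21994392 and 21994411 of chromosome 9, had a peak in all 6 libraries, and the antisense gene CDKN2B-AS1 starts beside it on the other strand, so that peaks at the 2 starts cannot be told apart. Its summit was 7.87 and 6.66 times the background in naïve, 16.6 and 14.2 times in R1, and 11.8 and 12.2 times in R2, and both resistant groups were above naïve without overlap. Ranked among the 36449 regions shared by all lists, this region, chr9:21994288-21994487, stood at 12.8 and 1.34 in naïve, 52.8 and 43.1 in R1, and 30.3 and 34.0 in R2. Its shift of R1 from naïve was 40.9 points (SE 9.16, unadjusted p of 0.00331) with an adjusted p of 0.0529 by limma, and that of R2 was 25.1 points (SE 9.16) with an adjusted p of 0.172, so neither passed. Without R2 replicate 1 in the fit the adjusted p for R1 was 0.0473, and it was 0.0575 to 0.356 without any other 1 library. The 10 other regions of its 10 Mb bin had median shifts of 17.3 and 25.2 points, and with the bin's median subtracted the shifts of the ARF region were 24.2 and 3.22 points. A start group further upstream, between 21995269 and 21995301, had no peak in naïve replicate 1 or R2 replicate 2. Its summit was 7.40 times the background in naïve replicate 2, 5.92 times in R1 replicate 1 and 9.41 times in R2 replicate 1. R1 replicate 2 was lower still, so both R1 libraries lay below naïve replicate 2 there, unlike at the ARF start. The canonical start of p16INK4A had no peak in the naïve libraries, a peak in R1 with 75 and 46 tags, or 9.44 and 8.46 times the background, and a peak in R2 replicate 2 with 10 tags. Scaled from R1, the naïve libraries would have had 19.4 to 21.6 and 11.4 to 12.8 tags there against lowest called pileups of 9 and 7, so that a site of the R1 level would have been above them. R2 would have had 7.20 to 8.49 tags against 6.

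TP63 was closed. Neither the TA start nor the ΔN start had a peak in any library, and its window of 285888 bp held 2 and 0 peaks in naïve, 0 and 1 in R1, and 0 and 1 in R2. None of these 4 peaks overlapped another, and their pileups were 15 and 12 tags in naïve replicate 1, 20 in R1 replicate 2 and 15 in R2 replicate 2. The window's covered share was at or below the 23.7th percentile of protein-coding genes in every library, and at 3.40 in R1 replicate 1, the deepest. Of the 7 protein-coding genes with a start within 1 Mb, IL1RAP had a promoter peak in 6 of 6 lists, CLDN1 in 5, P3H2 in both R1 lists only, GMNC in 2, and TPRG1, CLDN16 and TMEM207 in none. Open promoters were thus found close by, on the side beyond the end of the gene.

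TP73 was the opposite case in R1. Its window of 103686 bp held 37 and 26 peaks in naïve, 39 and 48 in R1, and 8 and 12 in R2, and peaks covered 11.8% and 7.82% of its bases in naïve, 65.4% and 56.5% in R1, and 2.10% and 3.04% in R2. Covered shares differed by more than the numbers of peaks, and single peaks in R1 were as wide as 11238 and 6144 bp, against 654 and 707 bp in naïve and 415 and 419 bp in R2. Among all protein-coding genes the covered share of TP73 was at the 74.4th and 75.1st percentile in naïve, the 88.6th and 87.6th in R1, and the 65.4th and 71.1st in R2. R1 stood above the other groups on this scale as well, which sets genes of the same list side by side. The scale also differed between libraries in the other direction. GADD45A was at the 71.0th and 76.2nd percentile in naïve, the 52.8th and 55.7th in R1, and the 87.6th and 83.4th in R2. A part of list depth in these percentiles was not tested. The TA start had a peak in R1 only, with 60 and 64 tags, or 7.56 and 11.8 times the background. Scaled to the other libraries these would be 17.3 to 26.9 and 10.2 to 15.9 tags in naïve, against lowest called pileups of 9 and 7, and 6.42 to 10.6 tags in R2 against 6. A promoter peak in both R1 lists and in no other was found in 7.33% of all genes. The start at position 3682366 of chromosome 1 had peaks in both naïve and both R1 libraries and the start at 3690672 in naïve replicate 1 and both R1 libraries, and no R2 library had a peak at any TP73 start. Scaled from R1, R2 would have had 4.38 to 6.68 tags at 3682366 and 5.63 to 6.68 at 3690672. These lie on both sides of the lowest called 6 tags, so a like site could have been missed there in R2. At the start at 3698058 the scaled level was 7.92 to 8.93 tags, above 6.

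The wide coverage was not bounded by TP73. In R1, peaks covered 90.0% and 82.9% of the bases from 200 to 100 kb before its start, 66.1% and 57.4% of the first 100 kb after it, and 22.3% and 17.0% of the next 100 kb. In naïve the same intervals had 22.5% and 15.3%, 11.8% and 8.09%, and 3.81% and 1.97%, and in R2 3.86% and 3.11%, 2.18% and 2.89%, and 1.01% and 1.13%. The order R1, naïve, R2 held in each, and the drop after the gene was seen in naïve and R1 alike. The shared regions of the first 10 Mb of chromosome 1 had median rank shifts of -2.32 points in R1 and -8.55 in R2.

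**Figure D4:**
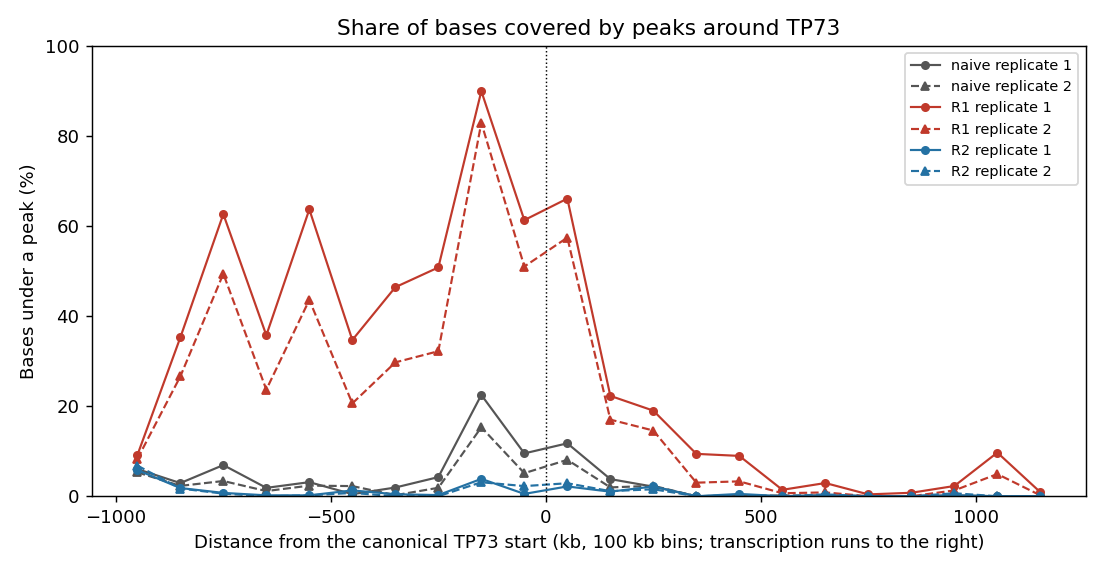
Share of bases under a peak (%, vertical axis) in 100 kb bins by distance from the canonical start of TP73, for the 6 libraries. The R1 lines reach 90.0% and 82.9% in the bin from 200 to 100 kb before the start and fall to 22.3% and 17.0% in the bin from 100 to 200 kb after it, and the R2 lines stay under 7%.

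MDM4 lay in a stretch with many peaks but was itself less covered. Within 1 Mb of MDM4, peaks covered 23.2% and 13.7% of the bases in naïve, 46.2% and 39.4% in R1, and 5.39% and 6.12% in R2. Its own window had 6.80% and 3.96% in naïve, 14.8% and 13.4% in R1, and 3.02% and 3.16% in R2, below the surroundings in every library. The other windows ranged widely. Those of MDM2, SESN1 and PPM1D had under 8% of their bases covered in each library, CDKN1A reached 36.0% and 30.1% in R1 against 11.8% and 10.0% in naïve and 7.92% and 3.84% in R2, and GADD45A lay between 6.70% and 11.0% in all 6. Of the 8 genes with peaks in all lists, GADD45A had the covered share that moved least in proportion.

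Of the 36449 shared regions 13 lay in the windows of these genes, and 3 of the 13 passed a test. For R2 against naïve limma called 2 of 13, against 3.27% of regions, and 4 of 13 had an unadjusted p under 0.05, against 22.8%. For R1 against R2 it called 3 of 13, against 11.2%, and 6 of 13 had an unadjusted p under 0.05, against 29.2%. For R1 against naïve it called 0 of 13, against 5.81%, and 1 of 13 had an unadjusted p under 0.05, against 24.4%. For both resistant groups against naïve it called 0 of 13, with 3 of 13 at an unadjusted p under 0.05, where 0.0% of all regions were called and 23.8% had an unadjusted p under 0.05. The region chr6:36679660-36679869, 1050 bp after the start of CDKN1A, ranked at 78.1 and 83.8 in naïve, 85.5 and 94.4 in R1, and 1.91 and 5.94 in R2, a shift of -77.0 points for R2 against naïve (SE 10.3, adjusted p of 0.0276, limma). The region chr1:67685589-67686167, 677 bp after the start of GADD45A, ranked at 92.9 and 90.3 in naïve, 93.1 and 82.3 in R1, and 30.3 and 24.0 in R2, a shift of -64.5 points (SE 8.10, adjusted p of 0.0245, limma). At GADD45A a single peak of the naïve and R1 libraries covered both this region and the promoter, and R2 had a separate narrow peak there with 10 tags in each library. At CDKN1A the R1 peak was joined to the promoter in the same way, the naïve value belonged to a second peak downstream with 41 and 30 tags, and R2 had a narrow peak with 7 and 8 tags and a further one with 17 and 10 tags. These shifts therefore set a joined peak against a split one. Counting only peaks whose summit lay in the region, an alternative chosen after seeing the data, 7 of the 13 regions could be compared and 0 were called, with 1 of 7 at an unadjusted p under 0.05 for R2 against naïve. Leaving out R1 replicate 1 or 2 or naïve replicate 1 or 2 ended both calls of R2 against naïve, with adjusted p-values of 0.0804 to 0.171 by limma and shifts of -62.9 to -80.1 points. The third region, chr1:204562100-204562662, beyond the end of MDM4, ranked at 7.22 and 7.28 in naïve, 4.32 and 8.47 in R1, and 51.0 and 34.0 in R2, a shift of -36.1 points for R1 against R2 (SE 8.38, adjusted p of 0.0425, limma). That call was lost without any 1 library but R2 replicate 2, with adjusted p-values of 0.0505 to 0.294 by limma. Its shift of R2 from naïve was 35.2 points with an adjusted p of 0.0711. The ranks did not overlap between R1 and naïve for 6 of 13 regions, against 61.9% of all regions, between R2 and naïve for 9 of 13, against 48.7%, and between all resistant libraries and naïve for 2 of 13, those of CDKN1A and the ARF start, against 25.4%. The 13 regions are not independent, since a single wide peak gives its rank to each R2 region it covers. All GADD45A regions had the same ranks in naïve, 92.9 and 90.3, and in R1, 93.1 and 82.3. All CDKN1A regions had the same R1 ranks, 85.5 and 94.4. Regions of these genes made up most of the 9, so counts out of 13 cannot be read as an excess over all regions.

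Other genes of the pathway, in lists chosen for their roles, gave 4 calls among 47 promoters tested for R1 against naïve, where 5.96% of all promoters were called, and 2 of 47 for both resistant groups against naïve, where 2.44% were. Of 12 kinases and regulators upstream of p53, all 12 were tested and 1 fell in R1, TRIM24, a ubiquitin ligase for p53, by 18.4 points (adjusted p of 0.0437, limma). The 31 other promoters in its 10 Mb bin had a median shift of -34.0 points. Of 11 growth arrest targets 9 were tested and 0 were called in any comparison, with 0 at an unadjusted p under 0.05. Of 10 repair and redox targets 9 were tested and 0 were called, with 2 at an unadjusted p under 0.05 in R1 and 0 in R2. Of 12 apoptosis targets 9 were tested and 1 rose, PHLDA3, an inhibitor of AKT signalling, which ranked at 54.4 and 36.6 in naïve, 80.6 and 83.5 in R1, and 82.4 and 85.3 in R2. For PHLDA3 the shift was 36.5 points in R1 (SE 8.73, adjusted p of 0.0444, limma) and 37.5 points over both resistant groups (adjusted p of 0.0442), while the 84 other promoters in its bin had medians of -9.21 and -6.08 points. Of 10 genes of the INK4 and RB axis 8 were tested. CDKN2D, an INK4 inhibitor, fell by 16.9 points in R1 (adjusted p of 0.0429, limma), where its bin of 207 other promoters had a median of -29.2. E2F1, a transcription factor held by RB, rose by 14.8 points in R1 (adjusted p of 0.0391) and 13.4 points over both groups (adjusted p of 0.0499), where its bin of 91 other promoters had medians of 24.5 and 21.5. With the bin's median subtracted none of these 4 genes passed. The shift of PHLDA3 was then 46.6 points in R1 (adjusted p of 0.0558, limma) and 41.8 points over both resistant groups (adjusted p of 0.103), in the same direction and larger than before. The other 3 genes turned direction, with 19.2 points for TRIM24 (adjusted p of 0.236) and 18.3 for CDKN2D (adjusted p of 0.154) in R1, and with -19.7 points in R1 and -17.2 over both groups for E2F1 (adjusted p of 0.178 and 0.204). Leaving out each library in turn gave adjusted p-values from 0.0319 to 0.323 over these calls, and each call was lost in at least 1 of these fits. For R2 against naïve and for R1 against R2, 0 of 47 were called by limma, where 0.585% and 0.932% of all promoters were, and 7 and 10 of 47 had an unadjusted p under 0.05, where 17.9% and 18.6% of all promoters had. The median shift of R1 from naïve was -7.41 points for the regulators, -1.72 for growth arrest, 6.60 for apoptosis, -3.79 for repair and redox and 4.38 for the INK4 and RB axis, against -0.747 over all promoters tested.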

How the data were processed

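ATAC-seq libraries of naïve, R1 and R2 cells, 2 per group, were analysed from the peak lists that the authors deposited. According to the methods and the submitters' processing notes, the authors aligned reads with BWA 0.7.12-r1039, marked duplicates with Picard 1.65, filtered with SAMtools 1.3.1, dropped mitochondrial reads, offset read ends for the transposase and called peaks in each library with MACS2 2.2.7.1 at a q of 0.01. The methods name hg19 and the notes list hg19 and hg38. The coordinates fit the hg38 chromosome lengths, and hg38 with GENCODE 44 was used. For each peak the authors deposited a fold enrichment, a ratio of tags to background, with its −log10 p-value and −log10 q-value. Levels set side by side between libraries are tags over the background rate recovered from the folds, or ranks within a list, and folds of different libraries entered 1 fit only in the log2 fold alternative, after quantile normalisation.

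The background rate of each list was recovered from the step of its folds, where every peak's tags came out whole within 0.02. Its values, 0.850 to 7.94 tags, are the only measure of depth, and reads were not used here. Peaks were ranked by p within each list. Promoter (10946) and region (36449) ranks were tested with limma 3.58.1 in R 4.3.3 (trend, all 6 libraries in 1 fit, two-sided, Benjamini-Hochberg over all features, called at an adjusted p under 0.05). Regions were peaks of the first R2 list with an overlap of at least 1 base in all lists. Scripts used Python 3.11.15, NumPy 2.4.6 and pandas 2.3.3 and were tested on simulated data, with overlaps checked against BEDTools 2.31.1. Starts within 500 bp were grouped, and a start had a peak when one came within 200 bp. Replicate numbers did not pair samples, since correlations of deviations lay between -0.024 and 0.061. Alternatives were ranking by fold, stricter q, top 20000 peaks, 500 bp promoters, 0.5 reciprocal overlap, regions of the second R2 list, subtraction of the median of each 10 Mb bin, normal scores, log2 folds, a replicate block, leaving out each library and, added later, summits within regions.

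The 9 genes, the pathway lists and the motifs were chosen with earlier results of these data known. Named beside the 9 are pathway genes that passed and, for a gene with no promoter peak, its neighbours within 1 Mb. For the gene with the largest range of promoter rank, the 3 genes with the most similar ranks are named. 1 of the cell type markers examined is not reported here.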

Additional observations from a re-analysis of the deposited data

Results flagged for a closer look

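At 3 regions near these genes the rank differed between R1 and R2 by the test of that difference itself (limma, adjusted over 36449 regions). The region at chr6:36679660-36679869 in CDKN1A had a difference of 86.0 points (R1 minus R2), where R1 ranked at 85.5 and 94.4 and R2 at 1.91 and 5.94. The region at chr1:67685589-67686167 in GADD45A had a difference of 60.5 points, where R1 ranked at 93.1 and 82.3 and R2 at 30.3 and 24.0. Both calls were lost without R1 replicate 1 or 2, with adjusted p-values of 0.103 to 0.173 by limma. In both, the R1 value belongs to a wide peak that also covers the promoter, and neither region could be compared when only summits within the region counted. The region at chr1:204562100-204562662 beyond MDM4 had a difference of -36.1 points, where R1 ranked at 4.32 and 8.47 and R2 at 51.0 and 34.0, and it too could not be compared by summits.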

How the results depend on the processing

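For the promoters of the 6 genes, 0 were called by limma in all 56 combinations of comparison and alternative, all 288 single values kept their side of the threshold, and the smallest adjusted p was 0.169. In 32 of the 288 the sign of an uncalled shift changed. Ranking by fold is counted among these alternatives, but it returned the shifts and adjusted p-values of the main fit unchanged. Its combinations and values are therefore copies of the main fit and no separate check. The calls at the 3 regions were not stable, and the limits are the 2 libraries a group and the unequal depth.

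Counts over all promoters moved more, and are given for R1 against naïve, R2 against naïve, both resistant groups against naïve and R1 against R2. Subtracting the median of the 10 Mb bin gave 35, 0, 1 and 3 promoters, log2 fold enrichment gave 1056, 189, 753 and 325, and normal scores gave 1019, 199, 719 and 296. A −log10 q of at least 5 gave 175 for the resistant groups, and promoters of 500 bp gave 60 for R1 against R2. Leaving out each replicate gave 0 to 974, 0 to 59, 0 to 198 and 0 to 11. The cause was not tested.

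Over all regions, a reciprocal overlap of 0.5 gave 297, 55, 86 and 326 calls, and 0 for the regions near these genes in R2 against naïve and R1 against R2. Summits within the region, added after seeing the data, gave 1213, 0, 398 and 536, and again 0 near these genes in both comparisons. Subtracting the bin's median gave 676 for R2 against naïve and 416 for the resistant groups with 1 region near these genes, in CDKN1A, while log2 folds and normal scores gave 1374 and 1187 for the resistant groups. Regions of the second R2 list gave 1 region near these genes in R2 against naïve, and the stricter q gave 1 in R2 against naïve and 1 in R1 against R2. Leaving out each replicate gave 0 to 3920, 0 to 3765, 0 to 3505 and 152 to 6691 regions, and near these genes 0 to 1, 0 to 3, 0 to 2 and 0 to 3.

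With the replicate number as a block, which does not pair these samples, promoters called were 581, 27, 184 and 42 and regions called 0, 199, 0 and 2763, with 1 region near these genes in R2 against naïve. Only the top 20000 peaks of each list left 5 of the 9 genes with a peak in the window in every list, and up to 3 mismatches gave 59 matches of the response element in place of 15.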

Other observations

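MDM4 had the largest range of promoter rank over the 6 libraries among these genes, 39.7 points, set by its R2 libraries at 86.2 and 46.5. The promoters with the most similar ranks over the 6 libraries, by Euclidean distance among 10946, were those of ARMC1 (a distance of 11.8 points), CCAR1 (13.9) and RIC8B (15.1). ARMC1 ranked at 72.0 and 65.2 in naïve, 51.1 and 55.3 in R1, and 82.4 and 51.2 in R2.

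In the 1 Mb on either side of these genes, the number of protein-coding promoters with a peak varied little around PPM1D, with 14 of 16 in each library. Around TP73 it was 11 and 8 of 14 in naïve, 13 and 14 in R1, and 4 and 9 in R2. Around CDKN1A it was 28 and 30 of 32 in naïve, 32 and 32 in R1, and 22 and 22 in R2. Around CDKN2A, which has 21 such promoters nearby, it was 3 and 2 in naïve, 4 and 4 in R1, and 3 and 1 in R2.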
